A study of Mus musculus with 33 samples.

Results

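The primitive endoderm regulators and products Gata6, Gata4, Sox17, Sox7, Pdgfra, Foxa2, Lama1, Amn, Cubn and Dab2 were examined in single mouse blastocysts. They were found by gene symbol among the non-control probes of an Agilent mouse array, which gave 10 of the 27962 gene names on the array and 20 of its 41174 probes. The genes were chosen by name and role, but with earlier results of these data known, so the choice was not blind to them. Levels are log2 of the processed signal over the 75th percentile of all probes on the same array, so a level of 0 lies at that percentile and a step of 1 is 2-fold.

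The study compared cloned embryos with embryos from in vitro fertilisation (IVF), 33 arrays in 8 groups, each array holding the amplified RNA of 1 blastocyst. All embryos are labelled (C57BL/6NxDBA/2)F1, and 96 h of culture is given for clones and IVF embryos alike. The clones were made by nuclear transfer from adult male Purkinje neurons (4 arrays), adult male hippocampal CA1 neurons (4), Sertoli cells of neonatal males (4), adult female Purkinje neurons (4), adult female CA1 neurons (4) and cumulus cells of females (3), and all 23 cloned embryos had been treated with trichostatin A, a histone deacetylase inhibitor, at 50 nM around activation. The controls were 7 male and 3 female IVF blastocysts. The labels describe the drug for reconstructed oocytes alone, so cloning and the drug cannot be told apart here. Per the file headers, the 13 arrays of IVF embryos and cumulus clones form an older set, read with a different scanner and software version from the 20 that hold the remaining clones, so donor and array set cannot be told apart in 5 of the 6 comparisons with IVF. Cumulus clones are the exception, since they share the array set of their controls. The labels do not say whether embryos of a group came from separate donors or sessions, so the p-values below measure only the spread between these embryos.

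In the late blastocyst the inner cell mass divides into the epiblast, which forms the fetus, and the primitive endoderm, which forms the parietal and visceral endoderm of the yolk sac. FGF signalling through ERK favours GATA6 over NANOG in the cells that become endoderm, and GATA6 is the first of the lineage's regulators to appear. PDGFRA, SOX17, GATA4 and SOX7 follow in that order, and the cells then sort to the surface of the inner cell mass, lay down a basement membrane that contains laminin, and acquire the endocytic proteins that take up nutrients.

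The Purkinje arrays were the dimmest, with 75th percentile signals of 229.7 to 659.1 in the male and 353.8 to 838.0 in the female group against 904.3 to 1465.6 on the other arrays. Probes well above background made up 45.0% to 62.5% of an array, with 45.0% to 46.0% in Sertoli clones. To put arrays on 1 footing, levels were floored at -3.43 on the log2 scale, and values on that floor have no order. The inner cell mass gene Pou5f1, the epiblast gene Sox2 and the trophectoderm gene Cdx2 lay above the floor on all 33 arrays. The arrays measured whole blastocysts, so fewer primitive endoderm cells and less RNA per cell cannot be told apart in any value below.

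Most genes of the later steps were lower in clones than in IVF embryos of the same sex, while Gata6 was not called lower in any comparison. Foxa2 fell in all 6 comparisons, Gata4 and Cubn in all 6, Sox7 and Lama1 in the 5 other than cumulus, and Amn in the 3 male ones. None of the Gata4 calls held with the floor doubled. Sox17 fell by its dim probe in the 3 male and the female Purkinje comparison. Gata6 rose by 1 of its 2 tested probes in 4 comparisons. None of these was the cumulus comparison, the only one within 1 array set. Pdgfra changed in no comparison. Dab2, an endocytic gene of the later steps, fell in none and rose by 1 of its 2 probes in male Purkinje clones.

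Counted by probe, 14 of the 20 member probes passed the filter on low values, with at least 1 for each gene, and the other 6 lay on the floor in all 33 embryos. Those 6 were 1 probe each of Gata6, Gata4, Sox7 and Pdgfra and 2 of Sox17. In male Purkinje clones 7 of the 14 fell and 2 rose, where 10.1% of all 22789 tested probes fell and 16.3% rose (limma, Benjamini-Hochberg adjusted p under 0.05). In male CA1 clones 7 fell and 1 rose, against 13.3% and 14.9% of all probes. In Sertoli clones 7 fell and 1 rose, against 10.8% and 13.4%. In female Purkinje clones 6 fell, against 5.93%, and 0 rose, against 11.2%. Female CA1 clones had 5 falling probes and 1 rising, against 4.9% and 6.95%. Of the probes in the cumulus comparison 3 fell, against 2.61%, and 0 rose, against 2%. The share of member probes that fell was thus above the share of all probes in each comparison, and the share that rose was not above it in 5 of 6 and close to it in the female CA1 comparison.

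These counts are a description and not a test, because the comparisons of one sex share their IVF embryos. In addition, Foxa2 and the Lama1 probe A_52_P561046 passed the filter through IVF groups alone, which favours probes that are higher in IVF. That Lama1 probe was called in no comparison. The median difference over the 14 probes was -0.53, -1.17, -1.45, -1.30, -1.14 and -1.11 in the order above, where the median over all tested probes was 0.04, 0, 0, 0.06, 0.03 and 0. Several counts depend on 1 embryo. The count of falling probes dropped from 7 to 4 without male Purkinje replicate 4 and from 7 to 4 without Sertoli replicate 1. It went from 5 to 3 in female CA1 clones without female IVF replicate 3. The cumulus count went from 3 to 0 without cumulus replicate 2 or 3 and to 1 without female IVF replicate 2 or 3. With the 5 dimmest Purkinje arrays left out (75th percentile below 500), 1 member probe fell in male and 0 in female Purkinje clones, with 2 and 1 arrays left in those groups.

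**Figure D1:**
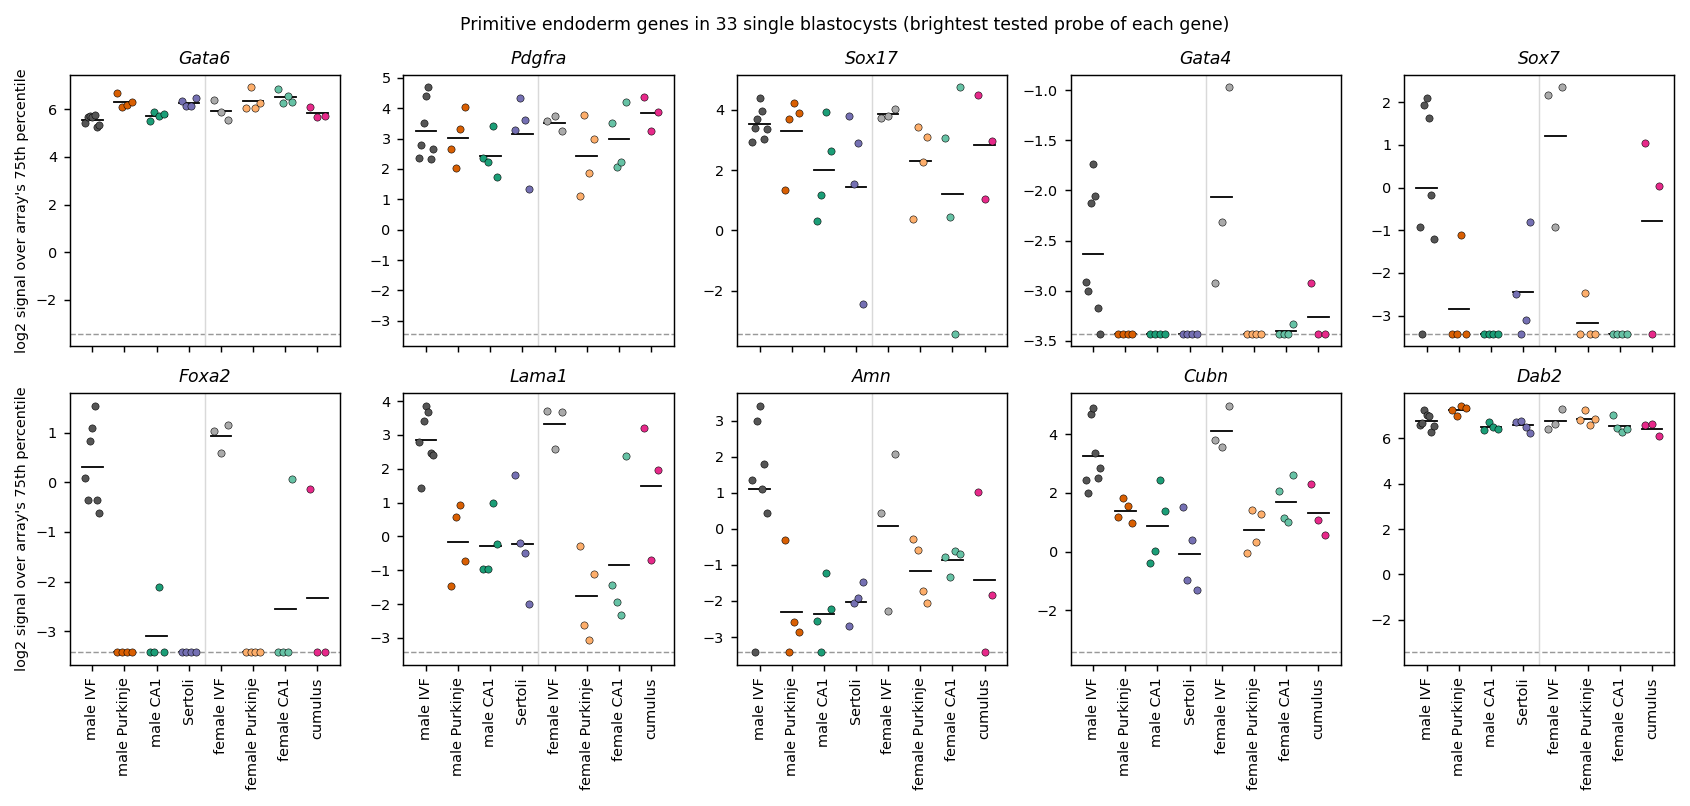
Level of each gene (log2 signal over the array's 75th percentile, vertical axis) in every embryo by group, for the brightest tested probe of each gene; points are embryos, black bars group means and the dashed line the floor. Gata6 stays between 5.24 and 6.94 on all 33 arrays, while Foxa2 lies on the floor in 20 of 23 clones and above it in all 10 IVF embryos.

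**Figure D2:**
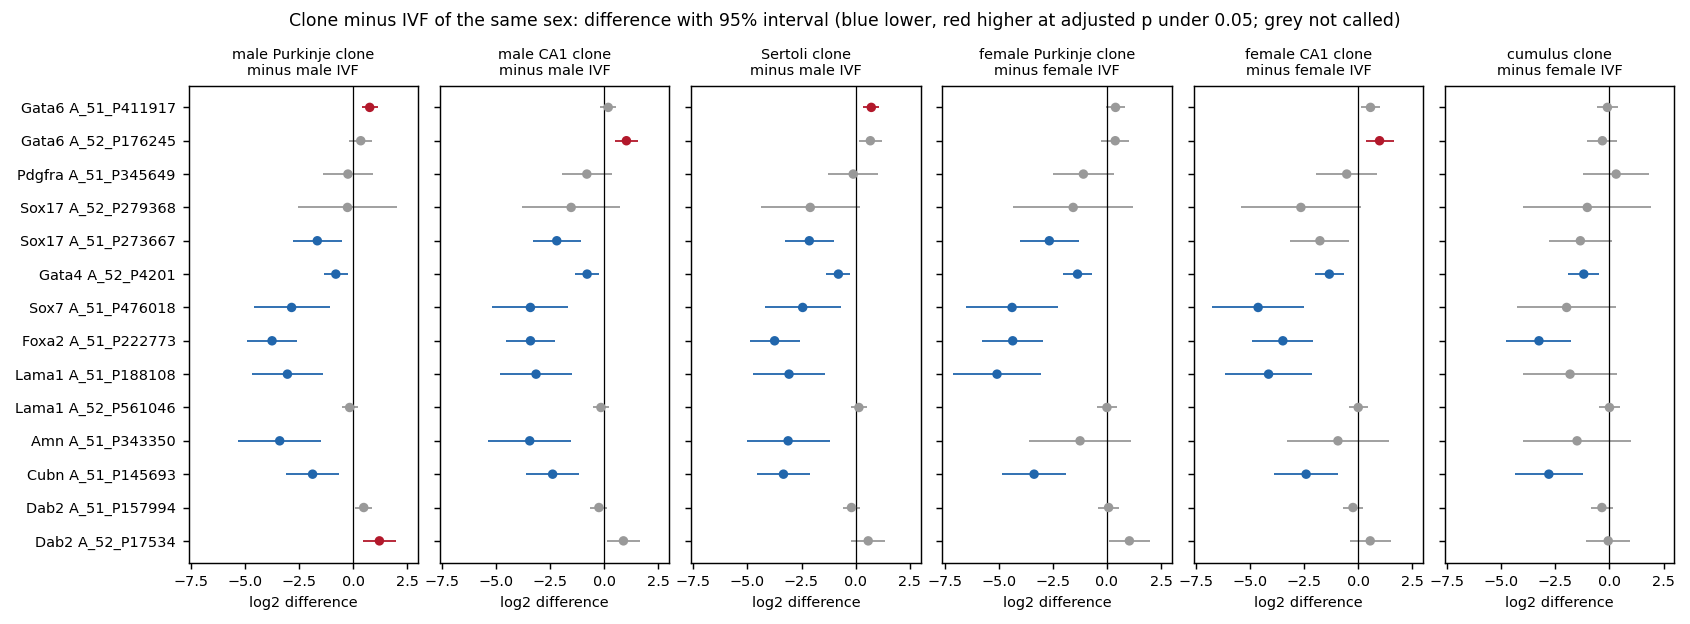
Difference of each clone group from IVF of the same sex (log2, horizontal axis) for the 14 tested probes, with 95% intervals from limma; blue marks lower and red higher at an adjusted p under 0.05, grey not called. The Foxa2 interval lies below 0 in every panel, and no Gata6 interval lies wholly below 0.

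Sequence in front of the start sites could be shown for 5 of the 10 genes, from RefSeq on GRCm38.p6. The windows below are the 250 bases before a start (1 of 3 starts listed for Foxa2 and 1 of 2 for Dab2, those with the motif), chosen because Foxa2 fell in all comparisons, Cubn fell with it and Dab2 did not fall. Capitals mark GATAA, the core of the GATA motif, searched as GATAA and its reverse complement TTATC.

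Foxa2, chr2:148045465-148045714, minus strand: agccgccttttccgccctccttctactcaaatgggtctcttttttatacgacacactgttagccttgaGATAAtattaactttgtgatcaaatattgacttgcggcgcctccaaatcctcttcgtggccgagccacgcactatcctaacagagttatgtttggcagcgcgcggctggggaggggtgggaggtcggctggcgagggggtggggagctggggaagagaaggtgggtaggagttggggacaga
Dab2, chr15:6299539-6299788, plus strand: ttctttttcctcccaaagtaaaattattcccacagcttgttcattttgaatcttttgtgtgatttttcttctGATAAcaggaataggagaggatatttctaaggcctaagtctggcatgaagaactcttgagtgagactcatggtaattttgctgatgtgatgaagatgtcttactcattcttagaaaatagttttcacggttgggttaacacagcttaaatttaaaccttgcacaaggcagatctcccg
Cubn, chr2:13491877-13492126, minus strand: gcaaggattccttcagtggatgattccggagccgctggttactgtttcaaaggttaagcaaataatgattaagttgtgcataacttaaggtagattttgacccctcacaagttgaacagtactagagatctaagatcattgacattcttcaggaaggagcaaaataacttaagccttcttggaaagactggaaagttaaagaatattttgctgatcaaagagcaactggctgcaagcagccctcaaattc

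The motif stands 182 bases before the Foxa2 start and 178 bases before the Dab2 start, and these letters do not occur in the Cubn window. It occurred in 2 of the 8 windows of member genes and in 7418 of all 32851 windows (22.6%). A match is a description of the letters only.

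GATA6 is the zinc finger factor that opens the lineage. Its brighter probe (A_51_P411917) read 6.70, 6.09, 6.16 and 6.29 in male Purkinje clones, 5.50, 5.87, 5.70 and 5.82 in male CA1 clones and 6.34, 6.14, 6.14 and 6.46 in Sertoli clones. Male IVF embryos ranged from 5.24 through a median of 5.66 to 5.76. Every male Purkinje and Sertoli clone lay above every male IVF embryo, and CA1 clones overlapped with them. The rise was 0.77 (SE 0.18, adjusted p = 0.00225, limma), or 1.70-fold, in male Purkinje clones and 0.72 (SE 0.18, adjusted p = 0.00409), or 1.65-fold, in Sertoli clones. In male CA1 clones the difference was 0.18 (95% interval -0.19 to 0.54, adjusted p = 0.50).

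Female clones were not called different from their controls by the brighter Gata6 probe, although the Purkinje and CA1 means lay higher. The same probe read 6.04, 6.94, 6.06 and 6.28 in female Purkinje clones, and 6.85, 6.28, 6.55 and 6.33 in those from female CA1 neurons. The 3 cumulus clones read 6.12, 5.67 and 5.74, and the 3 female IVF embryos 6.38, 5.88 and 5.55. All of these groups overlapped with female IVF. The differences were 0.40 (95% interval -0.05 to 0.84), 0.57 (0.12 to 1.01, adjusted p = 0.0884) and -0.10 (-0.57 to 0.38), and none was called. Ordered by mean, the levels ran from female CA1 (6.50 ± 0.26, SD, n = 4) through female Purkinje (6.33 ± 0.42, n = 4), male Purkinje (6.31 ± 0.27, n = 4), Sertoli (6.27 ± 0.16, n = 4), female IVF (5.94 ± 0.42, n = 3), cumulus (5.84 ± 0.24, n = 3) and male CA1 (5.72 ± 0.17, n = 4) to male IVF (5.54 ± 0.21, n = 7). Each step between neighbours was smaller than the SD of at least 1 of the groups it joins.

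The dimmer Gata6 probe (A_52_P176245) gave calls in other groups. It read 0.75, 1.24, 0.96 and 1.70 in male CA1 clones against -0.10 to 0.37 in male IVF (median 0.16), with no overlap, a rise of 1.02 (SE 0.26, adjusted p = 0.00389) or 2.03-fold. It read 1.82, 1.37, 1.50 and 1.32 in female CA1 clones against 1.1, 0.39 and 0.05 in female IVF, a rise of 0.99 (SE 0.32, adjusted p = 0.0399). The female CA1 groups did not overlap either, but that call was lost without any of female IVF replicates 2 and 3 and CA1 replicates 1, 2 and 3, with adjusted p from 0.0558 to 0.202. In male Purkinje clones the probe differed by 0.36 (95% interval -0.18 to 0.89) and in Sertoli clones by 0.68 (0.15 to 1.21, adjusted p = 0.0553). The probes of Gata6 thus disagreed on which male group had risen.

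The direction of Gata6 depended on the scaling. With arrays scaled to their median, the brighter probe differed by 0.42 in male Purkinje (adjusted p = 0.209) and 0.60 in Sertoli clones (adjusted p = 0.0728), and turned to -0.03 in male CA1 and -0.21 in female Purkinje clones. Under median scaling the median difference over all probes was -0.14 in male Purkinje, -0.12 in male CA1 and -0.30 in female Purkinje clones, against 0.04, 0 and 0.06 in the main setting. With quantile normalisation the male Purkinje difference was 0.31 (adjusted p = 0.184) and the Sertoli difference 0.47 (adjusted p = 0.0401). With normexp background correction neither was called, at 0.34 (adjusted p = 0.409) and 0.80 (adjusted p = 0.143). The dimmer probe stayed called in male CA1 clones at 0.81 with median scaling, 1.03 with quantile normalisation and 1.06 with normexp background correction. Its female CA1 call was lost under each of these settings (adjusted p = 0.0561, 0.0591 and 0.169). Gata6 was not called lower under any of the settings tried.

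PDGFRA, the receptor tyrosine kinase that marks the lineage soon after GATA6, varied between embryos more than between groups. Its probe read 2.67, 2.03, 3.33 and 4.03 in male Purkinje, 2.38, 2.24, 3.42 and 1.74 in male CA1 and 3.27, 4.34, 3.61 and 1.33 in Sertoli clones, against 2.35 to 4.70 in male IVF (median 2.79). It read 1.12, 3.79, 1.88 and 2.98 in female Purkinje, 3.50, 2.08, 2.22 and 4.21 in female CA1 and 4.38, 3.24 and 3.89 in cumulus clones, against 3.60, 3.74 and 3.26 in female IVF. Every clone group overlapped with its controls. The differences ran from -1.09 (95% interval -2.51 to 0.33) in female Purkinje to 0.31 (-1.21 to 1.83) in cumulus clones, with adjusted p from 0.309 to 0.942. These intervals leave room for changes of more than 2-fold in either direction in some groups.

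SOX17, an HMG-box factor needed for the identity of the endoderm, was read by a bright and a dim probe that differed in their calls. The bright probe (A_52_P279368) read 2.95 to 4.40 in male IVF (median 3.41) and 3.73, 3.80 and 4.04 in female IVF. Clones spread far more. Female CA1 clones read 3.05, 0.45, -3.43 and 4.76, Sertoli clones 3.79, 1.55, 2.91 and -2.45, male CA1 clones 0.30, 1.16, 3.94 and 2.65, and cumulus clones 4.48, 1.06 and 2.96. Male Purkinje clones read 1.35, 3.69, 4.23 and 3.89 and female Purkinje clones 0.38, 3.43, 2.28 and 3.11. Single clones of every group but female Purkinje thus reached the IVF range beside others of the same group far below it, and no difference was called (from -2.65, 95% interval -5.42 to 0.13, in female CA1 to -0.26, -2.54 to 2.02, in male Purkinje clones).

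The dim Sox17 probe (A_51_P273667) was tight in IVF, from -0.79 to -0.14 in males (median -0.49) and -0.51, -0.01 and -0.84 in females. It read -3.43, -1.39, -1.87 and -1.87 in male Purkinje, -3.43, -3.13, -1.56 and -2.62 in male CA1, and -1.37, -3.43, -2.28 and -3.43 in Sertoli clones, all below every male IVF embryo. The probe fell in all 3, with differences of -1.65 (SE 0.55, adjusted p = 0.0258), -2.20 (adjusted p = 0.00325) and -2.14 (adjusted p = 0.0054). Without male Purkinje replicate 1 the first was -1.22 (adjusted p = 0.128). In female Purkinje clones, at -3.43, -2.86, -3.43 and -2.74, it fell by 2.66 (adjusted p = 0.00683). Female CA1 (-1.77, 95% interval -3.14 to -0.40, adjusted p = 0.0831) and cumulus clones (-1.35, -2.81 to 0.12) each held 1 embryo at IVF level and were not called.

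GATA4, the second GATA factor of the lineage, was near the limit of the array. Its tested probe read -3.43 to -1.74 in male IVF (median -2.91) and -2.92, -2.32 and -0.97 in female IVF. All 12 male clones and all 4 female Purkinje clones lay on the floor, as did 3 of 4 female CA1 clones (the other at -3.33) and 2 of 3 cumulus clones (the other at -2.92). With floored embryos counted at the floor, Gata4 fell by 0.80 in each male comparison (adjusted p = 0.0287, 0.0268 and 0.0311), which is no bound, since 1 male IVF embryo was on the floor too. It fell at least 2.56-fold in female Purkinje clones (adjusted p = 0.00528). Counted the same way, the difference was -1.33 in female CA1 (adjusted p = 0.00818) and -1.19 in cumulus clones (adjusted p = 0.0483). Both are bounds too, since most of these clones were on the floor and no female IVF embryo was. These calls were among the least stable of the set. Each was lost with the floor doubled and in a fit of only the groups compared. All but the male CA1 call were also lost with normexp background correction. The female falls were 0.81 (adjusted p = 0.0849) and 0.78 (adjusted p = 0.116) in Purkinje and CA1 clones without female IVF replicate 3, and the cumulus fall was 0.64 (adjusted p = 0.294). The cumulus call was also lost without female IVF replicate 2 or any cumulus clone (adjusted p from 0.0622 to 0.164). Each male call was lost without male IVF replicate 3, 4 or 5 (-0.71 to -0.65) or any of its own 4 clones, with adjusted p from 0.0517 to 0.0665.

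SOX7, an HMG-box factor of the parietal endoderm that appears after GATA4, was variable even in IVF embryos. Male IVF read -0.93, -3.43, 1.94, 2.10, 1.62, -0.17 and -1.21, and female IVF 2.16, -0.93 and 2.36. All male CA1 and all female CA1 clones lay on the floor. Male Purkinje clones read -3.43, -3.43, -1.12 and -3.43, Sertoli clones -2.50, -3.43, -3.10 and -0.80, and female Purkinje clones -3.43, -2.46, -3.43 and -3.43. Since 1 male IVF embryo was itself on the floor, the male groups overlapped, whereas the female neuron clones all lay below female IVF. With floored embryos counted at the floor, Sox7 fell by 3.42 in the male CA1 group (adjusted p = 0.00346), which is no bound for the same reason. It fell at least 24.7-fold in female CA1 clones (adjusted p = 0.00436). It fell by 2.84 in male Purkinje (SE 0.86, adjusted p = 0.015), 2.45 in Sertoli (adjusted p = 0.0372) and 4.38 in female Purkinje clones (SE 1.04, adjusted p = 0.00476). Cumulus clones, at 1.04, -3.43 and 0.03, differed by -1.98 (95% interval -4.27 to 0.31). The male Purkinje call was lost without its replicate 4 (-2.65, adjusted p = 0.0528), and the Sertoli call without Sertoli replicate 1, 2 or 3 or male IVF replicate 3, 4 or 5 (-2.43 to -2.09, adjusted p from 0.0643 to 0.121).

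FOXA2, the forkhead factor of visceral and later definitive endoderm and of the node, was read in all IVF embryos and in few clones. Male IVF embryos read -0.62 to 1.54 (median 0.08) and female IVF embryos 1.03, 0.60 and 1.15. All male Purkinje, Sertoli and female Purkinje clones lay on the floor and were not well above background. Among the other 11 clones, 3 rose above the floor: male CA1 replicate 3 at -2.10, female CA1 replicate 4 at 0.06 and 1 cumulus clone at -0.14. The female CA1 and cumulus embryos thus lay within the male IVF range but below all 3 female IVF embryos, so that no clone group overlapped with its own controls.

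The probe entered the fit through the IVF groups alone, so its p-values are given as a description of these embryos. Foxa2 fell at least 13.4-fold in male Purkinje (adjusted p = 3.09e-05) and Sertoli clones (adjusted p = 2.83e-05), and female Purkinje clones were at least 20.5-fold lower (adjusted p = 0.000133). The difference was -3.41 (SE 0.56, adjusted p = 4.44e-05) in male CA1, -3.48 (SE 0.69, adjusted p = 0.00141) in female CA1 and -3.26 (SE 0.73, adjusted p = 0.0125) in cumulus clones, the last within the array set of its controls. Those falls are 10.7-, 11.2- and 9.57-fold with floored embryos counted at the floor. The calls in the 5 groups other than cumulus held without any single embryo. The cumulus call was lost without cumulus replicate 2 (-2.71, adjusted p = 0.0891) or 3 (-2.71, adjusted p = 0.0558). Without the 5 dim Purkinje arrays the fall was 3.74 in males (adjusted p = 0.005) and 4.35 in females (adjusted p = 0.062), with 1 female array left.

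LAMA1 is the alpha chain of laminin-111, which primitive endoderm secretes into its basement membrane. Its brighter probe (A_51_P188108) read 2.78, 1.43, 3.42, 3.87, 3.68, 2.46 and 2.39 in male IVF and 3.70, 2.57 and 3.66 in female IVF. Male Purkinje clones read -1.47, 0.58, 0.94 and -0.74, male CA1 clones -0.96, -0.97, 0.97 and -0.22, and Sertoli clones 1.81, -0.19, -0.49 and -2.0. The 2 neuron groups lay wholly below male IVF, and only Sertoli replicate 1 entered its range. Female Purkinje clones read -0.29, -2.63, -3.05 and -1.11 and female CA1 clones -1.43, -1.94, -2.33 and 2.37, all below every female IVF embryo. Cumulus clones, at 3.19, -0.69 and 1.96, overlapped with them. In all, 19 of 23 clones lay below all 10 IVF embryos.

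Lama1 fell by 3.03 (SE 0.81, adjusted p = 0.00657), or 8.19-fold, in male Purkinje clones, by 3.16 (SE 0.81, adjusted p = 0.00412), or 8.92-fold, in male CA1 clones and by 3.08 (SE 0.81, adjusted p = 0.00662), or 8.45-fold, in Sertoli clones. The male falls were thus of nearly the same size. In females it fell by 5.08 (SE 0.98, adjusted p = 0.000872), or 33.8-fold, in Purkinje and by 4.14 (SE 0.98, adjusted p = 0.00643), or 17.7-fold, in CA1 clones. These 5 calls held without any single embryo. Cumulus clones differed by -1.82 (95% interval -3.98 to 0.33). By mean level, female IVF (3.31 ± 0.64, n = 3) and male IVF (2.86 ± 0.86, n = 7) stood first, cumulus clones next (1.49 ± 1.98, n = 3), then male Purkinje (-0.17 ± 1.12), Sertoli (-0.22 ± 1.56), male CA1 (-0.30 ± 0.92), female CA1 (-0.83 ± 2.16) and female Purkinje clones (-1.77 ± 1.29, n = 4 each). Each step in that order was smaller than the SD of at least 1 of the groups it joins. Without the dim Purkinje arrays the differences were -3.31 in males (adjusted p = 0.0504) and -3.60 in females (adjusted p = 0.273). The second Lama1 probe (A_52_P561046) was above the floor in only 3 embryos and was called in no comparison.

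AMN and CUBN are the subunits of the cubam receptor, with which visceral endoderm takes up vitamin B12 complexes and proteins, and DAB2 is the adaptor that links such receptors to clathrin. Amn read 1.36, -3.43, 2.98, 3.42, 1.09, 1.79 and 0.44 in male IVF. It read -0.31, -3.43, -2.60 and -2.86 in male Purkinje, -2.55, -3.43, -1.23 and -2.22 in male CA1 and -2.68, -2.06, -1.91 and -1.46 in Sertoli clones. The clones lay below 6 of the 7 controls, and the remaining control was on the floor. Amn fell in all 3, with differences of -3.39 (adjusted p = 0.0085), -3.45 (adjusted p = 0.00653) and -3.12 (adjusted p = 0.0159), the last of which was lost without Sertoli replicate 1 (-2.90, adjusted p = 0.0521). Female IVF spread from -2.28 to 2.08, and the female differences of -1.24 (95% interval -3.58 to 1.1), -0.94 (-3.28 to 1.40) and -1.50 (-4.00 to 1.00) were not called.

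Cubn was measured above the floor in every embryo. Male IVF read 2.43, 1.99, 4.68, 4.91, 3.38, 2.52 and 2.86 and female IVF 3.82, 3.56 and 4.97. It read 1.19, 1.82, 1.55 and 0.97 in male Purkinje, -0.40, 0.03, 2.42 and 1.39 in male CA1, and 1.53, -0.95, 0.40 and -1.32 in Sertoli clones. It read -0.04, 1.41, 0.33 and 1.30 in female Purkinje, 2.07, 1.14, 1.03 and 2.59 in female CA1 and 2.30, 1.09 and 0.56 in cumulus clones. All groups lay wholly below their controls except male CA1 clones, of which 1 embryo entered the range. Cubn fell 3.66-fold (adjusted p = 0.0197), 5.25-fold (adjusted p = 0.00305) and 10.1-fold (adjusted p = 0.000181) in the male groups, and 10.3-fold (adjusted p = 0.002), 5.30-fold (adjusted p = 0.0281) and 6.98-fold (adjusted p = 0.035) in the female ones. The male Purkinje call was lost without its replicate 4 (-1.74, adjusted p = 0.0655). The female CA1 call was lost without female IVF replicate 1 or 3 or CA1 replicate 2 or 3 (-2.56 to -1.98, adjusted p from 0.0529 to 0.139). The cumulus call was lost without cumulus replicate 2 or 3 or any of the 3 female IVF embryos (-3.08 to -2.37, adjusted p from 0.0587 to 0.122).

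Dab2, in contrast, was bright in all embryos and fell in none of the comparisons. Its brighter probe (A_51_P157994) ranged from 6.25 through 6.65 to 7.24 in male IVF and read 6.42, 6.60 and 7.29 in female IVF. Male Purkinje clones read 7.24, 6.96, 7.43 and 7.34, at the top of that range and partly above it, a difference of 0.49 (95% interval 0.10 to 0.89, adjusted p = 0.0587). The other differences lay between -0.35 (-0.87 to 0.16) in cumulus and 0.08 in female Purkinje clones. The dimmer probe (A_52_P17534) read 2.74, 1.72, 2.77 and 3.16 in male Purkinje clones against -0.13 to 2.18 in male IVF (median 1.79) and rose by 1.22 (SE 0.38, adjusted p = 0.019), or 2.32-fold, with overlap of 1 clone. That call was lost without male Purkinje replicate 3 (1.16, adjusted p = 0.0578) or 4 (1.03, adjusted p = 0.0863). With median or quantile scaling the brighter probe turned to -0.53 or -0.50 in female Purkinje clones, and with median scaling the dimmer probe's male Purkinje difference was 0.87 (adjusted p = 0.159).

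Counting only groups that did not overlap, 4, 3 and 3 of the 14 probes lay wholly below IVF in male Purkinje, male CA1 and Sertoli clones, where 3.79%, 7.64% and 5.02% of all probes did. Among female groups 7 did in Purkinje, 5 in CA1 and 2 in cumulus clones, against 8.29%, 7.89% and 13.5%. The cumulus share was close to that of all probes.

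To ask whether the early and late steps fell alike, the level of Lama1 or Foxa2 was subtracted from that of Gata6 in the same embryo, in which the scaling of the array cancels, apart from the floor. This difference is a ratio of signals of different probes and is read only between groups. Because whole embryos were measured, the cells that gave the Gata6 signal are not known, and it may not come from primitive endoderm alone. Gata6 minus Lama1 was 1.83 to 4.23 in male IVF embryos, 5.23 to 8.16 in male Purkinje, 4.73 to 6.84 in male CA1 and 4.53 to 8.46 in Sertoli clones. No male clone overlapped with the controls. The mean rose by 3.80, 3.34 and 3.80, from 2.68 ± 0.79 (SD, n = 7) to 6.49 ± 1.37, 6.02 ± 0.92 and 6.48 ± 1.61 (n = 4 each). Each gave p = 0.00606 in a two-sided exact permutation test, the smallest that 4 against 7 embryos can give, and 0.0121 after adjustment over the 12 tests made.

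With Foxa2 in place of Lama1 the male differences were 4.51, 3.59 and 4.47, from 5.23 ± 0.69 (SD, n = 7) to 9.74 ± 0.27, 8.82 ± 0.70 and 9.70 ± 0.16 (n = 4), with the same exact p and adjusted p. They are lower bounds, since Foxa2 lay on the floor in 11 of the 12 male clones. They stand beside the Lama1 values as a description only, because Foxa2 was tested through the IVF groups alone. Lama1, which was well above background in all 33 embryos, fell relative to Gata6 in all 3 male comparisons, by more than the spread between embryos. The adjusted exact p was 0.019 to 0.033 with any single embryo left out. Without the dim arrays the male Purkinje differences were 4.16 and 4.60 (adjusted exact p = 0.0857, with 2 clones left).

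Female embryos showed the same order without a test that could pass. Gata6 minus Lama1 was 1.88 to 3.31 in female IVF, 6.33 to 9.57 in Purkinje, 3.96 to 8.88 in CA1 and 2.93 to 6.35 in cumulus clones. The differences of means were 5.48, 4.71 and 1.73. All Purkinje and CA1 clones lay above all controls, which gave exact p = 0.0571, the smallest that 4 against 3 can give (0.0686 adjusted). Of cumulus clones, 2 of 3 did so (exact p = 0.2, smallest possible 0.1). For Foxa2 the differences were 4.75, 4.05 and 3.16, all clones above all controls, with exact p = 0.0571, 0.0571 and 0.1.

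**Figure D3:**
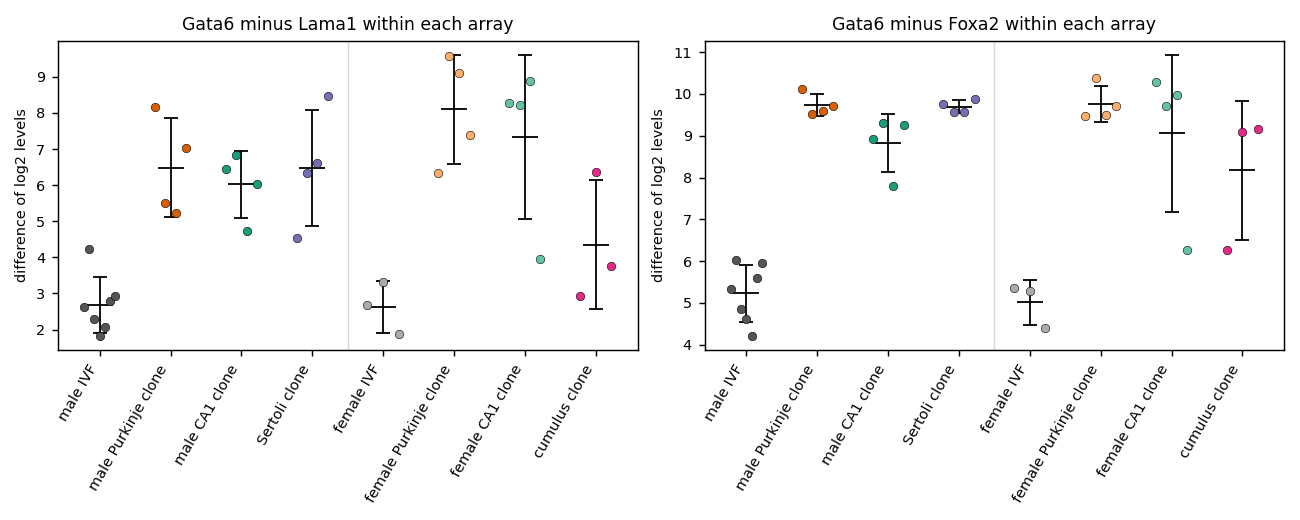
Gata6 minus Lama1 (left) and Gata6 minus Foxa2 (right) within each array, as differences of log2 levels (vertical axis) by group; points are embryos, bars the mean and SD. Male clones lie at 4.53 or higher on the left, above all male IVF embryos at 1.83 to 4.23.

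The neuron and Sertoli clones were also compared with each other within each sex, and the shares of member probes called were near those of all probes. Male Purkinje clones were higher than male CA1 clones in Gata6 (A_51_P411917, 0.59, SE 0.20, adjusted p = 0.045) and Dab2 (A_51_P157994, 0.74, SE 0.22, adjusted p = 0.0199), 2 of 14 probes where 9.67% of all were higher, and 0 were lower, where 6.03% were. Both calls were lost with median or quantile scaling. No member probe was called between female Purkinje and female CA1 clones (9.61% of all probes were, in either direction), male Purkinje and Sertoli clones (3.76%) or male CA1 and Sertoli clones (9.47%). At an unadjusted p under 0.05 limma called 1, 2 and 1 there. Lama1 differed by 0.12 (95% interval -1.75 to 1.99) between male Purkinje and CA1 clones, by 0.04 (-1.82 to 1.91) between male Purkinje and Sertoli clones and by -0.94 (-2.80 to 0.93) between female Purkinje and CA1 clones, intervals that do not exclude differences of 3-fold. Each of these groups was on its own slide.

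Male and female IVF embryos did not differ in any of the 14 probes by limma, at adjusted or unadjusted p under 0.05, where 0.342% of all probes did. The change from IVF did not differ between the sexes in any member probe for Purkinje (0.0483% of all probes) or CA1 clones (0.799%), again 0 at either threshold. The larger Lama1 fall of female Purkinje clones was therefore not called different from that of male ones.

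Within the 7 male IVF embryos, of which 1 lay on the floor in each of Gata4, Sox7 and Amn, Lama1 varied from 1.43 to 3.87 and other late genes varied with it. Sox7 followed Lama1 with Pearson r = 0.97 (exact permutation p = 0.00635, adjusted 0.0429 over 9 relations) and Spearman rho = 0.93 (adjusted 0.0554). Foxa2 gave r = 0.87 (exact p = 0.0143, adjusted 0.0429; rho = 0.86, adjusted 0.0714), Cubn r = 0.84 (exact p = 0.0111, adjusted 0.0429; rho = 0.82, adjusted 0.0768) and Gata4 r = 0.84 (exact p = 0.0214, adjusted 0.0482; rho = 0.89, adjusted 0.0554). Without the 2 embryos farthest from the median of the gene set against Lama1, chosen for each gene apart, these r values were 0.90, 0.76, 0.89 and 0.63. Amn (r = 0.85, exact p = 0.0286, adjusted 0.0514), Pdgfra (r = 0.77, exact p = 0.0433, adjusted 0.0649), Sox17 (r = 0.68, adjusted exact p = 0.106), Dab2 (r = 0.67, adjusted exact p = 0.116) and Gata6 (r = 0.45, exact p = 0.310) did not pass after adjustment. No rho passed after adjustment. These embryos lay on 3 slides of at most 4 embryos, too few for values within a slide.

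Over all 33 embryos, with each group's mean removed, Lama1 correlated with Foxa2 at r = 0.71, Sox17 at 0.67, Cubn at 0.61, Pdgfra at 0.43, Sox7 at 0.42, Amn at 0.35, Gata4 at 0.29, Dab2 at 0.15 and Gata6 at -0.09. The clone with Foxa2 at 0.06, female CA1 replicate 4, was also the clone of its group with the highest Lama1 (2.37), Sox17 (4.76), Pdgfra (4.21) and Cubn (2.59). Its Gata6 level of 6.33 was among the lower 2 of its group. These r values are descriptions, since the points share slides and several genes sit on the floor in clones.

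**Figure D4:**
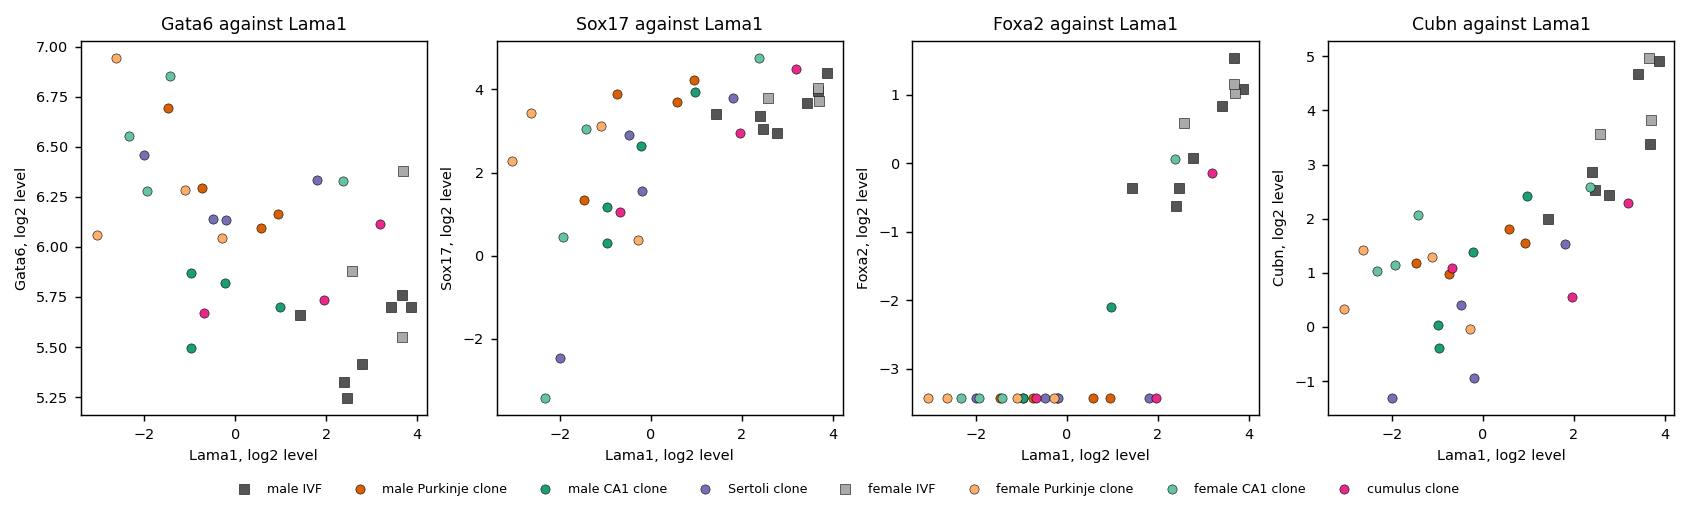
Level of Gata6, Sox17, Foxa2 and Cubn (vertical axes) against Lama1 (horizontal axis) in each of the 33 embryos, all log2 signal over the array's 75th percentile; squares are IVF embryos and circles clones. Foxa2 is above the floor in all 10 IVF embryos and in 3 clones. Female CA1 replicate 4, 1 of these clones, lies beside the IVF embryos at Lama1 2.37. Cubn tends to be higher where Lama1 is higher. Gata6 shows no such order.

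Among the 15416 named genes with a tested probe, those whose deviations over the 33 embryos were most like the mean of the members were Srgn (r = 0.88), a secretory granule proteoglycan listed on the array as Prg1, Spry4, an ERK feedback inhibitor (r = 0.79), Sparc, a basement membrane protein (r = 0.78), Bend5 (r = 0.78, listed as 2310026E23Rik) and Serpinh1, the collagen chaperone (r = 0.77). Of the members themselves Cubn (0.83), Foxa2 (0.79) and Lama1 (0.79) stood nearest that mean, which includes them, and Gata6 (0.25) stood farthest. Spry4 fell by 2.53 in male CA1 (adjusted p = 0.00394), 1.96 in Sertoli (adjusted p = 0.027), 3.00 in female Purkinje (adjusted p = 0.00907) and 2.41 in female CA1 clones (adjusted p = 0.044). Srgn fell in male CA1 clones alone among the 6 (by 3.63, adjusted p = 0.0105), and Sparc in female Purkinje clones alone (by 2.07, adjusted p = 0.0105). Other feedback inhibitors of the pathway went the other way: Dusp6 rose in male (1.49, adjusted p = 0.00189) and female Purkinje clones (1.33, adjusted p = 0.0261), as did Spry2 (0.94, adjusted p = 0.0449, and 1.22, adjusted p = 0.0454), and Dusp4 rose in male Purkinje (1.26, adjusted p = 0.024) and Sertoli clones (1.22, adjusted p = 0.031).

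Other genes of the primitive endoderm, 22 of 26 of them tested, moved in both directions. With the male groups first (Purkinje, CA1, Sertoli) and the female ones after them (Purkinje, CA1, cumulus), 5, 7, 5, 7, 3 and 4 fell and 5, 3, 2, 1, 1 and 0 rose. Their median differences were -0.27, -0.37, -0.80, -1.0, -0.33 and -0.86. Over all probes 10.1%, 13.3%, 10.8%, 5.93%, 4.9% and 2.61% fell, and 16.3%, 14.9%, 13.4%, 11.2%, 6.95% and 2% rose. Several of the rising counts lie near these shares. Genes of the basement membrane differed among themselves. Lamb1, the beta chain partner of LAMA1, fell in all but cumulus clones (by 1.35, 1.71, 1.22, 1.80 and 2.07, adjusted p from 0.00217 to 0.029). Col4a2, a type IV collagen chain, fell in all but Sertoli clones (by 1.71, 1.76, 2.73, 1.86 and 2.18, adjusted p from 0.00252 to 0.0468). Serpinh1 fell by 2.10, 1.57 and 1.94 in the male and by 3.52 in the female Purkinje comparison (adjusted p from 0.000463 to 0.0239). Lamc1, the laminin gamma chain, was called in none, Col4a1 and Sparc fell in 1 comparison each, and Nid2, a nidogen, rose in male Purkinje clones (0.98, adjusted p = 0.0259). P4ha2, a collagen prolyl hydroxylase subunit, rose in 4 comparisons, and Apoe, an apolipoprotein, fell in 4.

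Of 12 tested genes of FGF signalling through ERK, 1, 3, 2, 2, 2 and 0 fell and 6, 1, 3, 2, 0 and 1 rose in the same order, with median differences of 0.37, -0.13, 0.40, 0.36, 0.23 and -0.03. These counts are to be read beside the shares of all probes given for the endoderm genes. Mapk3, which encodes ERK1, fell in all but cumulus clones (by 1.75, 1.09, 1.20, 1.89 and 1.23, adjusted p from 7.11e-06 to 0.00739). Sos1, the exchange factor that activates RAS, rose in the 3 male groups (by 1.65, 1.66 and 2.33, adjusted p from 3.71e-05 to 0.00127). Fgfr2, a receptor shared by trophectoderm and endoderm, fell in male CA1 clones (by 1.02, adjusted p = 0.00725) and rose in cumulus clones (1.26, adjusted p = 0.0441). Fgfr1, the receptor that initiates the endoderm choice, was above the floor on 6 arrays and was called in none.

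The sister lineages were examined in the same way. Of 11 tested epiblast genes 3, 2, 3, 2, 2 and 0 fell and 1, 1, 1, 1, 0 and 0 rose. Nanog, the epiblast factor that opposes GATA6, was not called in any comparison (differences from -0.41 to 1.70). Bmp4, a ligand of the epiblast, fell by 1.37, 2.20 and 3.27 in the male and by 1.93 in the female CA1 comparison (adjusted p from 2.4e-05 to 0.0363). Zfp42, a pluripotency marker, rose by 1.68, 0.72 and 0.74 in the male and by 1.78 in the female Purkinje comparison (adjusted p from 5.23e-07 to 0.00431). Of 16 trophectoderm genes 3, 6, 6, 2, 4 and 0 fell and 3, 1, 2, 3, 1 and 0 rose. Plac1, a placental gene, fell in all but cumulus clones, with differences of -3.80, -5.62, -6.37, -4.56 and -4.42 (adjusted p from 3.16e-05 to 0.0143), while Hand1, a factor of trophoblast giant cells, rose by 3.89, 3.91, 3.09, 3.79 and 4.83 there (adjusted p from 5.8e-05 to 0.00188). Over all probes 10.1%, 13.3%, 10.8%, 5.93%, 4.9% and 2.61% fell in these comparisons, and 16.3%, 14.9%, 13.4%, 11.2%, 6.95% and 2% rose. Several of the counts thus lie near the share of all probes and say nothing particular about these lineages.

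Markers of the donor cells were sparse. Of 6 cumulus cell markers 1 was tested and was not called, with Ptgs2 on the floor in all 33 embryos. Of 6 Sertoli markers 4 were tested and only Rhox5, an X-linked homeobox gene also known from extraembryonic tissue, moved: it rose by 6.17, 6.10 and 6.02 in the male and 2.56 in the female Purkinje comparison (adjusted p from 8.98e-09 to 0.0124). Amh was on the floor in all. Of 7 neuron markers 4 were tested, and Nefl and Rtn1 fell in the 5 comparisons other than male Purkinje. The summed signal of the neuron markers was 4.26 to 11.41 times the 75th percentile in male IVF, 6.25 to 10.52 in female IVF and 0.717 to 5.13 in clones. Pcp2, a Purkinje cell gene, lay above the floor on all 33 arrays and was called in no comparison, with a difference of -0.30 in male and 0.39 in female Purkinje clones. The part of these markers in the values of the endoderm genes was not tested.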

How the data were processed

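Single blastocysts were profiled on single-colour (Cy3) Agilent 4x44K arrays after amplification of their RNA in a pair of rounds, per the labels' protocols. The authors deposited Feature Extraction output (version 9.5.3.1 for the 13 earlier and 10.5.1.1 for the 20 other arrays, per the file headers), whose processed signal is a background-corrected intensity per spot, and a value table of log2 values, centred by probe, which was used only as an alternative. Intensity was scaled to the 75th percentile of its array, floored at 0.0929 of that value and put on the log2 scale, which left 56.1% of values on the floor. Spots of the same probe were averaged. Files of the later set carry no gene names, which were taken through probe names from the earlier set. A probe was tested if well above background in over 50% of a group, over the floor on 3 or more arrays and present on at least 2 per group. All 8 groups were fitted in limma 3.58.1 (R 4.3.3), with Benjamini-Hochberg adjustment over all 22789 probes. The normexp alternative was meant for the mean signal, which the later files lack, and used the median signal. The procedure was tried on simulated data without a floor. Changes were put only into probes whose mean level lay above the 75th percentile, so probes near the floor were not covered. Alternatives covered scaling, background, floor, filter, samples, slide, left-out embryos and the replicate number. The members and the gene lists were chosen with earlier results of these data known. Genes beyond the members were named from those lists, and as the 5 most like the members' mean. The arrays' number limits the precision.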

Additional observations from a re-analysis of the deposited data

Results flagged for a closer look

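In 8 of 71 sets of 4 to 10 embryos with a spread, 1 embryo stood apart from the rest of its group by Dixon's ratio. In 6 of them every other embryo lay on the floor, so that any value above it had to be flagged. The count of 8 is therefore not to be read against the 1 in 20 that chance gives for values without a floor. Female CA1 replicate 4 stood apart in Foxa2 at 0.060 and in Gata4 at -3.33, the latter just above the floor of -3.43. Male CA1 replicate 3 stood apart in Foxa2 at -2.10. Male Purkinje replicate 3 read -1.12 and female Purkinje replicate 2 read -2.46 in Sox7. The dim Lama1 probe read -2.19 in Sertoli replicate 2, and -2.51 in male IVF replicate 3, whose nearest other embryo read -3.24. The dim Dab2 probe read 2.52 in female Purkinje replicate 3, below the other 3 embryos at 2.96 or higher.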

How the results depend on the processing

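The alternatives other than left-out embryos and the replicate block gave 488 repeats of the 40 calls. Of these 415 kept direction and call, 72 lost the call and 1 changed sign: Gata4 in male Purkinje clones turned to 0.31 (adjusted p = 0.649) with normexp. Leaving out a single embryo ended 16 of the 40 calls. The probes falling in male Purkinje clones, 7 in the report, were 4 with normexp, 3 with the replicate block and 1 without the dim Purkinje arrays. The 7 of Sertoli clones were 2 with the block. The 6 of female Purkinje clones were 1 with the block and 0 without the dim arrays. The 5 of female CA1 clones were 3 with normexp, 2 with only the groups compared and 0 with the block. The 3 of cumulus clones were 1 with median scaling or slide as a random block, and 0 with normexp, only the groups compared or the replicate block. Between male Purkinje and CA1 clones the 2 called probes became 0 with median scaling or quantile normalisation, 4 with normexp and 1 with the slide block. From 0, female Purkinje against CA1 gave 1 with median scaling and male Purkinje against Sertoli 1 with normexp. The cause was not tested; the fit of only the groups compared has fewer samples.

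Leaving out each embryo gave 4 to 7, 6 to 7, 4 to 7, 5 to 6, 3 to 6 and 0 to 2 falling probes in the order of the report, 0 to 2 calls between male Purkinje and CA1 clones, 0 to 1 between female ones and 0 to 0 in the other donor, IVF and sex comparisons. Gata6 minus Lama1 then ranged over 3.24 to 4.22, 3.06 to 3.77, 3.15 to 4.45, 4.99 to 6.07, 4.20 to 5.84 and 0.725 to 2.44, and Gata6 minus Foxa2 over 4.34 to 4.64, 3.42 to 3.93, 4.30 to 4.60, 4.44 to 4.92, 3.64 to 4.98 and 2.67 to 4.12. Without the dim arrays the male Purkinje values were 4.16 and 4.60 (adjusted exact p = 0.0857). The nearly silent Lama1 probe A_52_P561046 gave 0.34 in male CA1, 0.57 in Sertoli and -0.10 in cumulus clones (exact p adjusted to 0.098, 0.133 and 0.70).

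Same-numbered embryos did not deviate together: their correlations ran from -0.03 to 0.24 in male Purkinje clones and were lower or mixed elsewhere, and in no comparison did every embryo correlate best with its own number. The numbers were therefore not taken as pairs. With the replicate block 11 of the 40 calls were kept. The early against late differences within numbers were 3.74, 3.27 and 3.74 for Lama1 and 4.54, 3.61 and 4.49 for Foxa2 in the male groups (adjusted exact p = 0.25, since 4 pairs cannot pass).

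Signal over background limits Gata4, Sox7, Foxa2 and the dim Sox17 and Lama1 probes, whose clone levels lie at or near the floor. The size of the fall is not known there, and is a bound only where no control lies on the floor.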
